A study of Mus musculus with 2 samples.

Results

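The Notch receptors and their canonical ligands form a family of 9 genes, *Notch1* to *Notch4*, *Dll1*, *Dll3*, *Dll4*, *Jag1* and *Jag2*, which were taken by symbol from the 29311 genes listed in both RNA-seq tables. All 9 genes were listed, each under 1 identifier. The 2 samples were wild-type E14 ES cells and wild-type forebrain of E10.5 embryos of the strain B6CBAF1/J, with 1 sample per group and no replicates. The ES cells were cultured on gelatin without feeders and with serum and LIF, and forebrain RNA was prepared from single embryos. Cell type, strain and culture therefore cannot be told apart, and no test between the samples was possible.

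Notch receptors are transmembrane proteins that are activated by Delta (Dll) and Jagged (Jag) ligands on a neighbouring cell. Binding leads to cleavage of the receptor by Adam10 and the gamma-secretase complex, and the released intracellular domain joins Rbpj and a Mastermind-like protein (Maml) on target genes such as *Hes1* and *Hes5*. In the embryonic brain the pathway is best known for lateral inhibition, whereby cells entering neurogenesis express Delta ligands under the control of proneural factors such as Neurog2 and hold their neighbours in the progenitor state. *Dll3* is an exception among the ligands, since its product does not activate Notch receptors in neighbouring cells.

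Levels are given as the RPKM of the authors, which is a level per length of gene and so allows genes to be compared. Their scaling differs from the usual definition by a factor for each sample. RPKM times kb of exon summed to 52231968 in ES cells and 48968968 in forebrain, far more than under the usual definition. The values printed here are therefore much larger than usual RPKM and cannot be set beside those of other studies. What 1 read is worth could be recovered from short genes, which gave 42774031 reads for ES cells and 59787126 for forebrain. Intervals that follow are exact 95% intervals on the inferred reads, and they cover counting error only. All 9 genes of the family have more than 2500 bp of exon, so their reads were extrapolated and rounded. The error of that step is not in the intervals. A gene at the median had an RPKM of 48.94 in ES cells and 62.37 in forebrain. ES cell markers were high in ES cells (9 of 9 listed genes at least 2-fold higher there), and forebrain neuroepithelium markers in forebrain (9 of 9, with *Nr2e1* and *Lhx2* at 0 reads in ES cells). *Tfcp2l1* and *Sox1* of these lists were not analysed here. The dissected forebrain also held RNA of other cell types. Head mesenchyme markers summed to an RPKM of 82.5 in ES cells and 20238 in forebrain, where all 8 were at least 2-fold higher, and blood markers to 363 and 675421, where all 7 were and *Ptprc* was at 0 reads in ES cells. In bulk samples of this kind, fewer cells of a type and less RNA per cell cannot be told apart.

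The promoters of 3 ligands and of the target *Hes5* are shown first, because their windows hold at least 1 of the motifs named below. The 3 ligands are the only members with such a match, so they were picked by it. The sequences are those of RefSeq on GRCm38.p6, a later build than that of the tables, and each covers the 250 bases before a transcription start. Capitals mark TTCCCAC, the core motif bound by Rbpj, the E-box CAGCTG, the E-box CAGATG and the octamer ATTTGCAT of POU factors, all searched on both strands. *Dll1* has 2 starts, at chr17:15375824-15376073 and chr17:15376933-15377182, both on the minus strand. The windows of *Dll3* (chr7:28301786-28302035, minus strand), *Jag1* (chr2:137116521-137116770, minus strand) and *Hes5* (chr4:154960673-154960922, plus strand) follow.
Dll1, first window: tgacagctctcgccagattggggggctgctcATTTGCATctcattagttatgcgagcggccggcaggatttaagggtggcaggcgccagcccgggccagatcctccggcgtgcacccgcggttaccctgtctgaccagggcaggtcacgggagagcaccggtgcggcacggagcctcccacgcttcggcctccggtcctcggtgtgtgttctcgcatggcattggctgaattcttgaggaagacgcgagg
Dll1, further window: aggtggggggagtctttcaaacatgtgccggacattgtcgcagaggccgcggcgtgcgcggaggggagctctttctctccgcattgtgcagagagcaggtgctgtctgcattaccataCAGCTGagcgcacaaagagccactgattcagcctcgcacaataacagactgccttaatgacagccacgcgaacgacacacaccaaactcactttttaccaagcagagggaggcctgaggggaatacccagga
Dll3: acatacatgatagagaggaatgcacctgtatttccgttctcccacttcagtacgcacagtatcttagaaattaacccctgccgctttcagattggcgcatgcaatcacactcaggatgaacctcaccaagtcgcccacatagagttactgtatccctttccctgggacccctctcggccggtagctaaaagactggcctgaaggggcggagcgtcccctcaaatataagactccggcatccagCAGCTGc
Jag1: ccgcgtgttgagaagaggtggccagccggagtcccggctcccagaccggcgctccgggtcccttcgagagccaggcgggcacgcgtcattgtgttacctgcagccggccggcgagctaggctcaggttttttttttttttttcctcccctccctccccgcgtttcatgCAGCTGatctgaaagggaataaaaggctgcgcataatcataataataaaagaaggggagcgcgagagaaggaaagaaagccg
Hes5: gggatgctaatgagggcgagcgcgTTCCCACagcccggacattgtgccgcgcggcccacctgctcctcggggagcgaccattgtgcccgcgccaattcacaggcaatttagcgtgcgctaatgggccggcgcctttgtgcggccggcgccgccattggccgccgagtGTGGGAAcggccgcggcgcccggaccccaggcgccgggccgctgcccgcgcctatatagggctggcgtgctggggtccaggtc

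The 9 genes had 10 such windows. CAGCTG was found in 3 of them, those of *Dll3*, *Jag1* and the further window of *Dll1*, whereas 13.0% of 32851 promoter windows of all genes held it. The octamer was found in 1 window, the first of *Dll1*, and in 1.6% of all windows. TTCCCAC occurred in 0 of the 10 windows and CAGATG in 0, compared with 5.42% and 14.4% of all windows. *Hes5* held TTCCCAC in both orientations. Of the 10 windows, 9 lay at or above the median of all windows in their number of CpG dinucleotides, with *Jag2* highest at 54 CpG. *Notch4* was the exception with 4, below the median of 6. These matches describe letters in the windows and not binding.

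The receptors and ligands fell into a group that was higher in forebrain and a group within 2-fold between the samples. *Notch1*, *Notch2*, *Notch3*, *Dll1*, *Dll3* and *Dll4* were at least 2-fold higher in forebrain, and *Notch4*, *Jag1* and *Jag2* were within 2-fold. No member was at least 2-fold higher in ES cells. Thus 6 of 9 genes were higher in forebrain on log2(RPKM + 1), where 25.8% of all listed genes and 27.9% of protein-coding genes were past the same threshold. In the direction of ES cells the count was 0 of 9, compared with 23.3% of all listed genes and 18.9% of protein-coding genes. The same 6 genes also exceeded a 4-fold difference, as did 14.4% of all listed genes, with 11.3% exceeding it in the direction of ES cells. On this scale the median log2 ratio was 2.17 for the receptors and 2.82 for the ligands, compared with 0.01 over all listed genes and 0.17 over protein-coding genes.

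**Figure D1:**
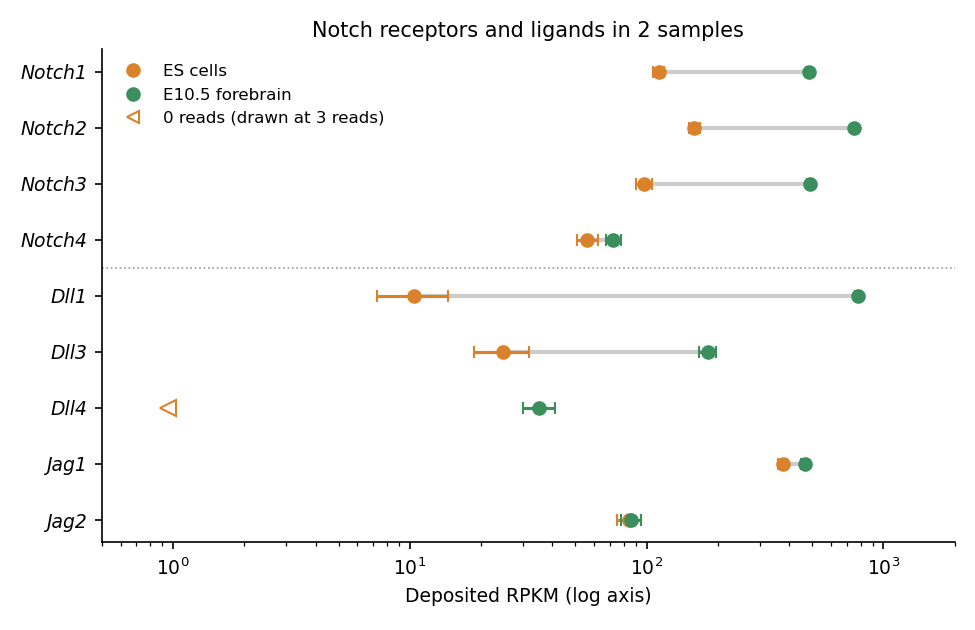
Deposited RPKM of the 9 genes (horizontal log axis) in ES cells (orange) and forebrain (green), 1 sample each, with exact 95% Poisson intervals on the inferred reads as error bars and receptors above the dotted line. The open triangle stands for *Dll4* in ES cells, with 0 reads, drawn at the RPKM of 3 reads. Among genes with reads in both samples *Dll1* shows the widest gap, from 10.42 to 781.81, and the points of *Jag2* coincide. The gap of *Dll4* depends on where the triangle is drawn.

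Among the receptors, *Notch2* (ENSMUSG00000027878, chromosome 3, 97817461 to 97954290, mm9, plus strand) had the highest RPKM in both samples. It was 158.51 in ES cells (150 to 167, from 1364 reads) and 752.39 in forebrain (737 to 768, from 9651 reads), a 4.75-fold difference (4.48 to 5.03). *Notch1*, the receptor most studied in neural progenitors (ENSMUSG00000026923, chromosome 2, 26313423 to 26372183, minus strand), had an RPKM of 112.25 in ES cells (106 to 118) and 483.01 in forebrain (473 to 493). For *Notch1* this is a 4.30-fold difference (4.06 to 4.57), from 1308 and 8393 reads. Both receptors therefore moved from percentiles 59.1 (*Notch1*) and 63.2 (*Notch2*) of the listed genes in ES cells to 77.4 and 84.0 in forebrain.

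*Notch3* (ENSMUSG00000038146, chromosome 17, 32257765 to 32303825, minus strand) is known for its role in vascular mural cells and is also expressed by neural progenitors. Its RPKM was 97.21 in ES cells (89.8 to 105.0, from 640 reads) and 487.9 in forebrain (474 to 502, from 4792 reads), which is 5.02-fold apart (4.62 to 5.46). *Notch4*, a receptor of endothelial cells (ENSMUSG00000015468, chromosome 17, 34701213 to 34725448, plus strand), differed least among the receptors. It had an RPKM of 56.19 in ES cells (50.6 to 62.2, from 371 reads) and 72.35 in forebrain (67.1 to 77.9, from 712 reads), a 1.29-fold difference (1.13 to 1.46). *Notch4* lay at percentile 51.5 in ES cells and 51.6 in forebrain, close to the middle of the listed genes in either sample. Among protein-coding genes alone it lay lower, at percentile 46.4 in ES cells and 43.8 in forebrain.

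The summed RPKM of the 4 receptors was 424 in ES cells and 1796 in forebrain, 4.23 times as high, whereas their proportions changed little for 3 of them. *Notch2* held 37.4% of the receptor sum in ES cells and 41.9% in forebrain, *Notch1* 26.5% and 26.9%, and *Notch3* 22.9% and 27.2%. The share of *Notch4* was 13.2% in ES cells and 4.03% in forebrain. In ES cells the order of RPKM was *Notch2*, *Notch1*, *Notch3* and *Notch4*, with no overlap of neighbouring intervals. In forebrain the intervals of *Notch3* and *Notch1* overlapped, and their order was not resolved. The place of *Notch1* depends on the length used. Its 14 annotated transcripts cover 14232 bp of exon, while its longest coding transcript has 9488 bp, and per length of the latter its RPKM would be 168 in ES cells, above *Notch2*, and 725 in forebrain, below *Notch2*.

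The Delta ligands differed most between the samples. *Dll1*, the main activating ligand of neurogenic cells (ENSMUSG00000014773, chromosome 17, 15504318 to 15513836, minus strand), had an RPKM of 10.42 in ES cells, from 36 reads (7.30 to 14.4). In forebrain it reached 781.81 from 4027 reads (758 to 806), which is 75.0 times the value in ES cells (54.1 to 107). *Dll1* thereby had the lowest RPKM but one of the members in ES cells, while in forebrain it was among the highest together with *Notch2*, whose interval overlapped its own. This overlap depends on the length used. Per length of its longest coding transcript *Dll1* would have an RPKM of 921 in forebrain, compared with 752 for *Notch2*. Its log2 ratio of 6.10 exceeded that of 98.5% of protein-coding genes.

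*Dll4*, a ligand of arterial and sprouting endothelium (ENSMUSG00000027314, chromosome 2, 119151520 to 119161698, plus strand), was listed at 0 in ES cells. Its RPKM in forebrain was 35.19, from 165 reads (29.9 to 40.9), the lowest of the 9 genes there. This is 37.0 times the limit of detection in ES cells, taken as 3 reads or an RPKM of 0.951. With the counting error of both samples, the exact interval of the ratio of *Dll4* had a lower end of 29.7 and no upper end. That lower end holds for the deposited scaling and covers counting error only. *Dll3* (ENSMUSG00000003436, chromosome 7, 29076673 to 29087257, minus strand) had an RPKM of 24.82 in ES cells (18.7 to 31.8, from 58 reads) and 180.79 in forebrain (167 to 195, from 635 reads). The 7.28-fold difference of *Dll3* (5.61 to 9.78) was smaller than that of *Dll1*, as their intervals did not overlap. *Dll3* exceeded *Dll1* in ES cells, with a level 2.38 times as high, but in forebrain *Dll1* was 4.32 times as high as *Dll3*.

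The Jagged ligands showed little difference. *Jag1* (ENSMUSG00000027276, chromosome 2, 136907192 to 136942380, minus strand), a ligand with many roles including in vessels and in neural progenitor domains, had the highest RPKM of all 9 genes in ES cells. It was 375.25 there (358 to 393, from 1791 reads) and 464.23 in forebrain (449 to 480, from 3303 reads), a 1.24-fold difference (1.17 to 1.31). *Jag2* (ENSMUSG00000002799, chromosome 12, 114146801 to 114167706, minus strand) had an RPKM of 84.47 in ES cells (74.7 to 94.8, from 280 reads) and 85.77 in forebrain (77.9 to 94.4, from 425 reads). The ratio of *Jag2* was 1.02 with an interval from 0.874 to 1.19, so that neither direction was resolved at this depth. The log2 ratio of *Jag2* was 0.02 as deposited and -0.07 when each sample was scaled by its upper quartile.

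The makeup of the ligand pool differed more than its sum. The RPKM of the 5 ligands summed to 495 in ES cells and 1548 in forebrain, which is 3.13 times as high. The Delta ligands contributed 35.24 in ES cells and 998 in forebrain and were 28.3 times as high there, or 27.6 times with *Dll4* taken at its limit of detection. The sum of the Jagged ligands was 460 in ES cells and 550 in forebrain, which is 1.20 times as high. *Jag1* held 75.8% of the ligand sum in ES cells and 30.0% in forebrain, where *Dll1* accounted for 50.5%, compared with 2.11% in ES cells. All ligands had 1.17 times the summed RPKM of the receptors in ES cells and 0.862 times in forebrain. These values depend on the length used. Per length of its longest coding transcript *Notch1* alone would have an RPKM of 168 in ES cells, in place of 112.25. Without *Dll1* the ratio of the ligand sums between the samples was 1.581, and without *Jag1* it was 9.052.

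**Figure D2:**
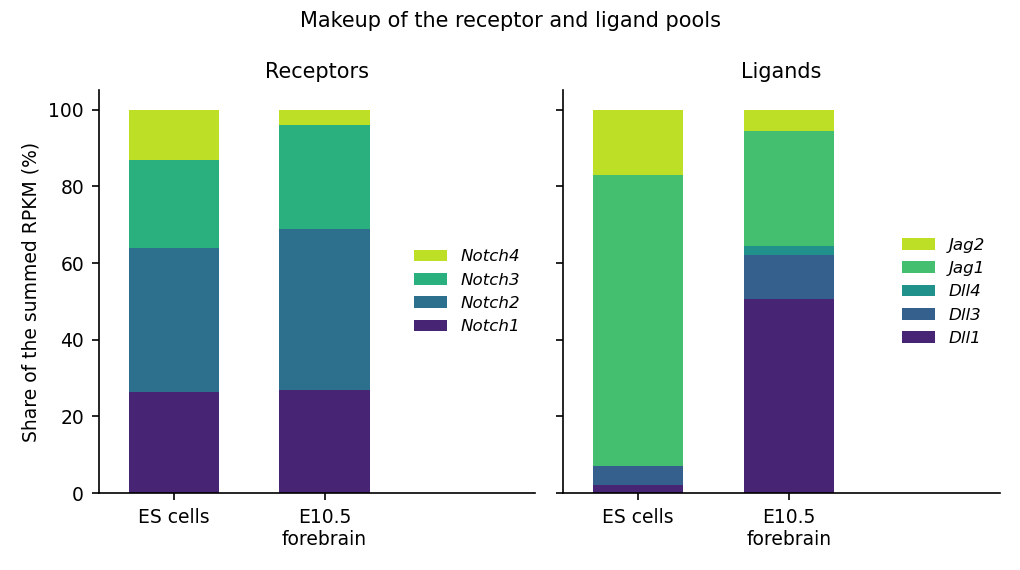
Share of each gene (%) in the summed RPKM of the 4 receptors (left) and of the 5 ligands (right), in ES cells and forebrain, 1 sample each. The receptor bars are similar but for *Notch4* (13.2% and 4.03%), whereas in the ligand bars *Jag1* is the largest share in ES cells (75.8%) and *Dll1* in forebrain (50.5%).

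When receptors and ligands were ordered together, *Jag1* was followed in ES cells by *Notch2*, *Notch1*, *Notch3*, *Jag2*, *Notch4*, *Dll3*, *Dll1* and *Dll4*. The intervals of *Notch3* and *Jag2* overlapped in this order. In forebrain the order was *Dll1*, *Notch2*, *Notch3*, *Notch1*, *Jag1*, *Dll3*, *Jag2*, *Notch4* and *Dll4*. Here the intervals overlapped between *Dll1* and *Notch2*, between *Notch3* and *Notch1* and between *Notch1* and *Jag1*. Those of *Jag2* and *Notch4* nearly met, at 77.90 and 77.86. The overlaps depend on the length used. Per length of the longest coding transcript *Notch1* and *Jag1* would have an RPKM of 725 and 482 in forebrain. The log2 ratios spanned 0.36 to 2.32 over the 4 receptors, 2.82 to 6.10 over the 3 Delta ligands and 0.02 to 0.31 over the Jagged ligands.

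**Figure D3:**
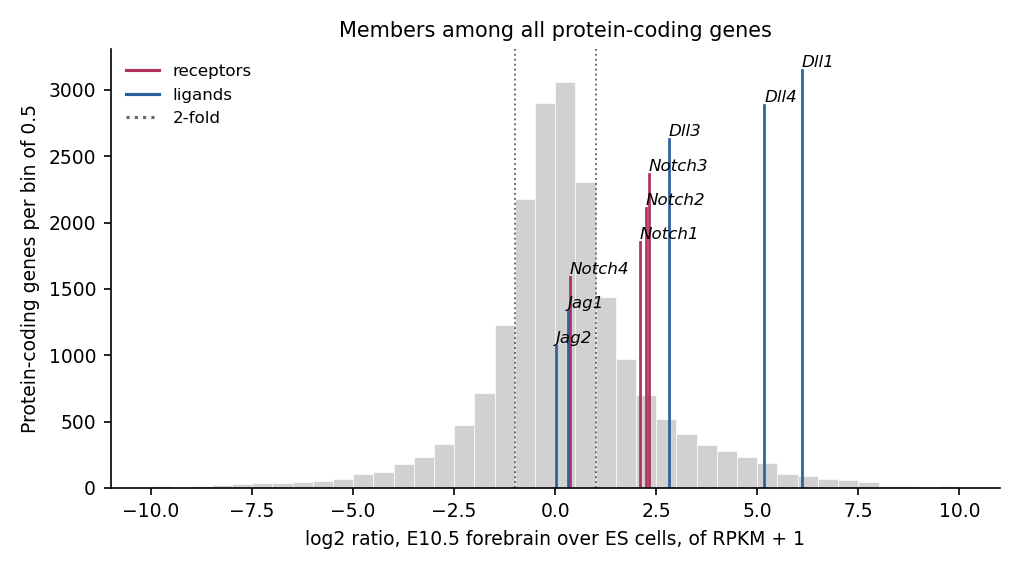
Number of protein-coding genes (grey bars) by their log2 ratio of RPKM + 1, forebrain over ES cells, in bins of 0.5, with receptors (red) and ligands (blue) as vertical lines whose heights only separate the names. Dotted lines mark 2-fold, and *Dll1* and *Dll4* lie furthest to the right, at 6.10 and 5.18, while *Notch4*, *Jag1* and *Jag2* lie near the middle at 0.36, 0.31 and 0.02.

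Transcripts annotated on the opposite strand overlap exons of 4 members. The libraries keep strand, but whether the authors' counting used it is not given in the sources used here, so that reads in shared exons could have been assigned to either gene. A lincRNA with 867 bp of shared exon, *A930024N18Rik*, lies opposite *Dll1* and had an RPKM of 1.23 in ES cells and 131.72 in forebrain, from 4 and 636 reads. *Gm14207*, opposite *Dll4*, had 0 reads in ES cells and 22 in forebrain. Opposite *Notch1*, *0610009E02Rik* had an RPKM of 58.23 in ES cells and 249.86 in forebrain, and *Gm13568* had 41.06 and 290.17. *Gm17276*, which shares 488 bp of exon with *Notch3*, had 30.72 and 58.3. All 5 thus had the higher value in forebrain, as had the 4 members they overlap, although *Gm17276* was within 2-fold. The median log2 ratio of all listed genes was 0.01, so a higher value in forebrain is common and this count says little about the pairs. *Gm13568* rested on 15 reads in ES cells. The part of shared reads was not tested.

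The values of markers of vessels are of interest beside *Notch3*, *Notch4* and *Dll4*. The RPKM of 10 endothelial markers summed to 687 in ES cells and 3151 in forebrain, with 9 at least 2-fold higher in forebrain and 0 at 0 reads in either sample. *Pecam1* was the exception, with 551.14 in ES cells and 316.51 in forebrain, and without it the sums were 136 and 2835. Mural cell markers summed to 290 in ES cells and 1751 in forebrain, all 7 were at least 2-fold higher in forebrain, and *Kcnj8* was the marker at 0 reads in ES cells. Young neuron markers, which bear on *Dll1* and *Dll3*, were at least 2-fold higher in forebrain for 9 of 10 genes, with sums of 7759 in ES cells and 6372 in forebrain. The sum in ES cells was largely that of *Stmn2*, at 6910.29 compared with 1056.31 in forebrain, and without it the sums were 848 and 5315. Markers of the primitive streak and endoderm summed to 1221 in ES cells and 345 in forebrain. Of these, 5 of 8 were at least 2-fold higher in forebrain and 3 in ES cells, so the list does not mark differentiating ES cells alone. Here *T* alone had an RPKM of 1112.09 in ES cells and 2.66 in forebrain, and without it the direction of the sums turned, to 109 and 343. The part of these cell types in the differences of the receptors and ligands was not tested.

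**Figure D4:**
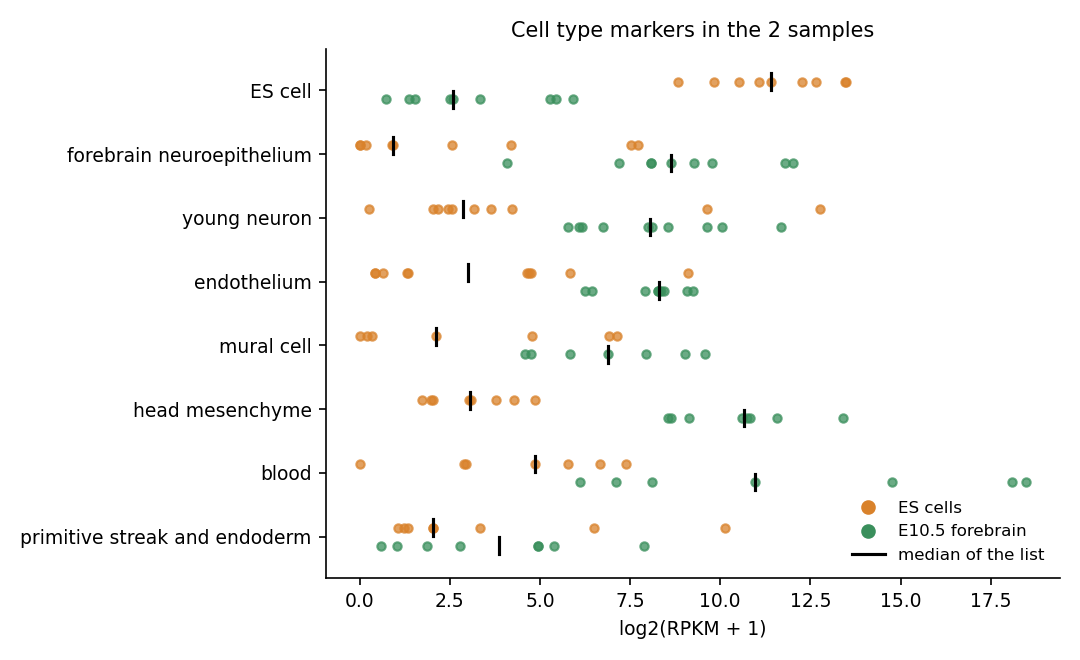
Level of each marker gene as log2(RPKM + 1) (horizontal axis) by cell type, in ES cells (orange) and forebrain (green), with the median of each list as a black line. Markers of endothelium, mural cells, head mesenchyme and blood are present in forebrain beside those of neuroepithelium, and the 9 listed ES cell markers are higher in ES cells.

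Other genes of the pathway were then described by role, in 9 lists with 65 genes that do not include the 9 members. Of these, 29 were at least 2-fold higher in forebrain (44.6%), 3 in ES cells (4.62%) and 33 in neither direction. The corresponding shares of all listed genes were 25.8% and 23.3%, and those of protein-coding genes 27.9% and 18.9%. The counts per role that follow are to be read beside these shares. Some lie close to them, such as 3 of 11 corepressor genes higher in forebrain. The median log2 ratio was 0.88 over the 65 genes, compared with 0.01 over all listed genes. The lists hold genes of related function that are not independent of each other.

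Among genes that act on the ligands, 2 of 6 were higher in forebrain and 1 in ES cells (median log2 ratio 0.25). *Mib1*, the ubiquitin ligase that Delta and Jagged ligands need for endocytosis and signalling, had an RPKM of 966.07 in ES cells and 2232.18 in forebrain, 8204 and 28258 reads. The related ligases of the Neuralized family differed in opposite directions. *Neurl1a* had an RPKM of 147.8 in ES cells and 44.84 in forebrain, and *Neurl1b* had 2.57 and 12.85. Of 5 genes that glycosylate the receptors, 2 were higher in forebrain and 0 in ES cells (median 0.54). *Lfng*, a Fringe enzyme that modifies how receptors respond to Delta and Jagged ligands, had an RPKM of 22.2 in ES cells and 391.06 in forebrain, which is a log2 ratio of 4.08.

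Of 10 genes that cleave the receptor, 4 were higher in forebrain and 0 in ES cells (median log2 ratio 0.90). The largest ratio was that of *Aph1b*, a gamma-secretase subunit, with an RPKM of 5.12 in ES cells and 257.98 in forebrain. Its close paralog *Aph1c*, which is named because reads may be split between the 2 genes, had 4.03 and 117.66, and the values of both are uncertain. The nuclear genes included several of similar level in both samples. *Rbpj*, the DNA-binding partner of all 4 receptors, had an RPKM of 576.92 in ES cells and 446.05 in forebrain, with a log2 ratio of -0.37. In the activator complex 3 of 8 genes were higher in forebrain and 1 in ES cells (median 0.58). *Maml3*, a Mastermind-like coactivator, had an RPKM of 1.87 in ES cells and 150.95 in forebrain, whereas the acetyltransferase gene *Kat2b* had 514.86 and 58.48. Of 11 corepressor genes, 3 were higher in forebrain and 0 in ES cells (median 0.52). The largest ratio was that of *Tle2*, a Groucho-type corepressor, with 2.16 and 21.37.

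Genes of receptor turnover and inhibition were higher in forebrain for 4 of 10 genes and in ES cells for 1 (median log2 ratio 0.84). Here 2 members of the Deltex family of ubiquitin ligases stood at the ends of the list. *Dtx4* had an RPKM of 14.51 in ES cells and 825.98 in forebrain, and *Dtx1* had 186.29 and 26.61. Of 6 non-canonical ligands, 5 were higher in forebrain and 0 in ES cells (median 3.83). *Dlk1*, an imprinted gene whose product lacks the receptor-binding domain of the canonical ligands, had the largest ratio, with an RPKM of 0.22 in ES cells, from 1 read, and 412.08 in forebrain, from 2846 reads.

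Genes downstream of the receptors and upstream of the Delta ligands were also measured. Of 6 target genes, 4 were higher in forebrain and 0 in ES cells (median log2 ratio 3.67). *Hes5*, a repressor that keeps neural progenitors undifferentiated and whose promoter with its pair of TTCCCAC motifs is printed above, had an RPKM of 3.58 in ES cells, from 4 reads, and 1198.59 in forebrain, from 1995 reads. *Hes1*, a related repressor, was of similar level, with 641.3 in ES cells and 819.89 in forebrain (log2 ratio 0.35). Of 3 proneural genes of the Neurogenin family, 2 were higher in forebrain and 0 in ES cells (median 5.03). *Neurog2*, a factor that drives neurogenesis and Delta expression, had an RPKM of 0.55 in ES cells, from 1 read, and 399.98 in forebrain, from 1087 reads.

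**Figure D5:**
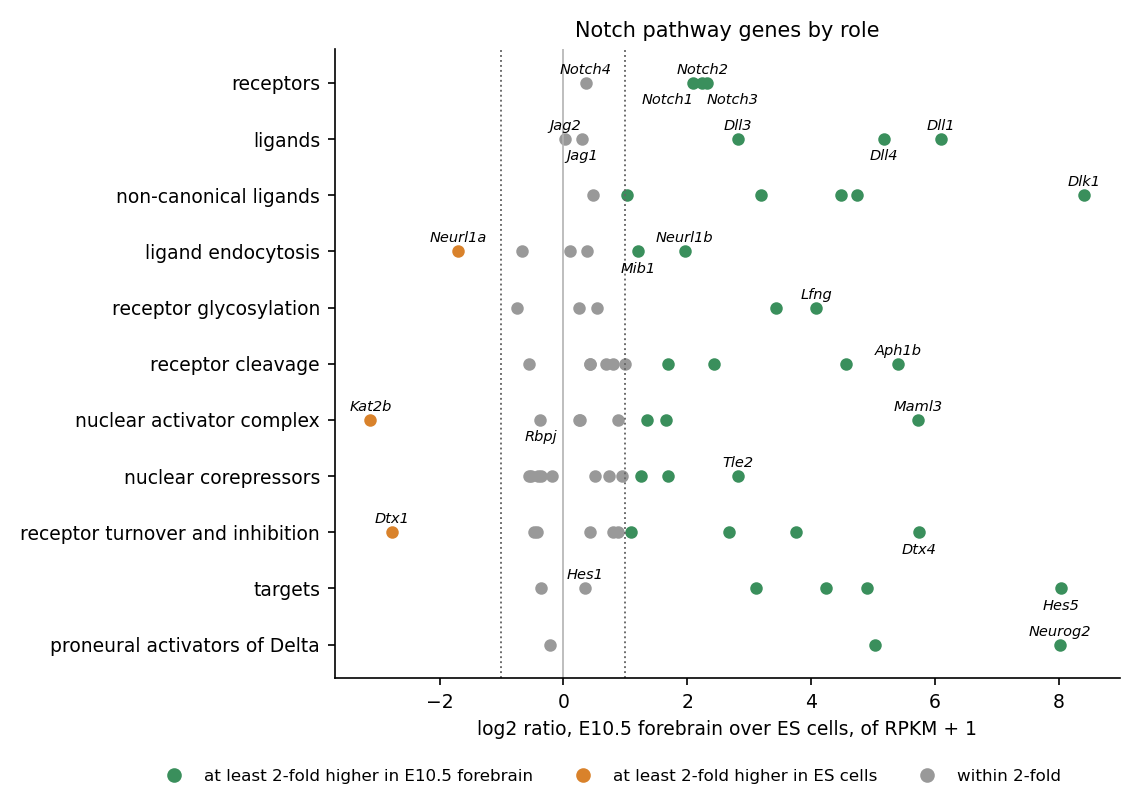
log2 ratio of RPKM + 1, forebrain over ES cells (horizontal axis), of each receptor, ligand and other pathway gene, 1 row per role, in green where at least 2-fold higher in forebrain, orange where at least 2-fold higher in ES cells and grey otherwise. Green points are found in all roles, and 25.8% of all listed genes would be green by the same threshold. The 3 orange points are *Neurl1a*, *Kat2b* and *Dtx1*, where 23.3% of all listed genes would be orange.

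Genes with the pair of levels most like that of a member were sought among protein-coding genes, by distance over the 2 values of log2(RPKM + 1). With 2 samples this describes a level and a ratio only. The nearest to *Notch1* were *Miip*, *Sclt1* and *Ipp*, at distances of 0.0066 to 0.020. *Dll1* had fewer close neighbours, and *Megf6*, *Kif21a* and *Limch1* were nearest at 0.19 to 0.29.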

How the data were processed

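Strand-specific libraries were made from ribosome-depleted total RNA of both samples and read from 1 end. The submitters' processing notes name Bowtie 0.12.7 and NCBIM37 (mm9), and the methods name the RNA-seq pipeline of HTSstation. The authors deposited 1 value per gene and sample, called RPKM. The scaling is not given in the sources used here.

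All 29311 genes matched the GENCODE annotation of the same build by coordinates. Genes with 2500 bp of exon or fewer served to estimate what 1 read is worth, which was 1.221 RPKM kb in ES cells and 0.8191 in forebrain. Multiples of it were whole to within 0.05 for 59.6% and 63.2% of their low values. Reads of longer genes were extrapolated and rounded. Fold differences and their intervals are quotients of RPKM with nothing added. Log2 ratios were taken on log2(RPKM + 1), a scale that understates changes of low genes, and genes at least 2-fold apart on it were counted. Poisson and Clopper-Pearson intervals are exact. Pseudocounts, scalings, thresholds, a filter on low values and gene sums without 1 gene were varied. The scripts were tested on simulated data.

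The members, the lists and the motifs were chosen with earlier results of these data known. Named genes were the members, Rbpj, Mib1, Lfng, Hes1, Hes5, Neurog2 and, per list and direction, the gene of largest ratio past 2-fold with at least 20 reads in the higher sample; 1 further gene is not reported here, and markers, overlapping transcripts and Aph1c were named beside results. Software comprised pandas 2.3.3, scipy 1.17.1, numpy 2.4.6, Python 3.11.15 and, for plots, matplotlib 3.10.9.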

Additional observations from a re-analysis of the deposited data

How the results depend on the processing

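The counts of 6 members higher in E10.5 forebrain and 0 in ES cells were the same with pseudocounts of 0.1 and 5, with scaling by the sum, the upper quartile or by inferred reads, and with fold thresholds of 1.5 and 4. Scaling by the sum moved the median log2 ratio of all listed genes from 0.01 to 0.26. The share of all listed genes higher in forebrain was then 30.0%, and 24.6% by the upper quartile and 27.1% by inferred reads. In the direction of ES cells these scalings gave 19.7%, 24.8% and 22.0%. Pseudocounts of 0.1 and 5 gave 29.6% and 20.7% in forebrain, and 26.5% and 17.6% in ES cells. The ratio of the receptor sums was 5.115 with scaling by the sum, 3.983 by the upper quartile and 4.515 by inferred reads, and 3.927 without *Notch2*. For the ligand sums these scalings gave 3.778, 2.942 and 3.335. The ligand ratio was 1.581 without *Dll1* and, in alternatives chosen after seeing the data, 9.052 without *Jag1* and 3.356 per length of the longest coding transcript. Pathway genes higher in ES cells numbered 5 in place of 3 at a fold threshold of 1.5, which counts smaller differences. The 29 pathway genes higher in E10.5 forebrain ranged from 20 at a threshold of 4 to 37 at 1.5. At a threshold of 4, 14.4% of all listed genes were higher in forebrain and 11.3% in ES cells. The shares of all listed genes at 1.5 are not given here, so the counts at 1.5 have no comparison. The log2 ratio of *Dll4* ranged from 3.01 to 8.46 with the pseudocount, since it had 0 reads in ES cells. Marker sums without their highest gene were also computed after seeing the data. No paired analysis was possible because each group had 1 sample, and no replicate could be left out.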
